A study of Mus musculus with 2 samples.

Results

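The 10 genes described here are Efnb2, Gja4, Gja5 and Unc5b, which mark arterial endothelium, Ephb4, Nr2f2, Aplnr and Nrp2, which mark venous endothelium, and Emcn and Vwf, endothelial genes that were placed on neither side. They were chosen by name from 31053 genes counted, and their unique molecular identifiers (UMIs, 1 per captured RNA molecule) were read in endothelial cells (ECs), in the other cells of the same tissue and between genotypes. Whole aorta-gonad-mesonephros (AGM) regions of mouse embryos at embryonic day (E)11 gave 1 library from PDGFRB +/+ (WT) embryos and 1 from PDGFRB -/- (KO) embryos, each loaded for 7000 cells on the 10x Chromium 3′ platform. By genotype, the KO embryos are null in all their cells for PDGFRβ, a receptor that recruits pericytes to vessels, and come from a line kept as heterozygotes on a C57BL/6J background. How many embryos went into a library is not given in the sources used here. With 1 library per genotype, and cells of 1 library being no replicates, no test was made: each level is given with a 95% interval that covers counting error only.

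Arterial and venous ECs take on separate identities early in vessel formation. Notch signalling, with SoxF factors upstream of it, favours the arterial program, and the nuclear receptor COUP-TFII, the product of Nr2f2, favours the venous program and restrains Notch. Ephrin-B2 (Efnb2) on arterial ECs and its receptor EphB4 (Ephb4) on venous ECs help to keep the vessels apart. In the AGM, the dorsal aorta runs beside the cardinal veins, and blood cell clusters bud from the aortic wall.

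Of the deposited barcodes, 8253 in WT and 8165 in KO held 2000 or more UMIs and under 10% mitochondrial UMIs, with medians of 13321 and 12391 UMIs, and 20 barcodes were kept in both libraries. ECs were the cells with 5 or more UMIs of Cdh5 and Pecam1 together, both encoding junction proteins of endothelium, and numbered 94 in WT and 89 in KO. Their median gate sums were 32.5 and 30.0 UMIs. Only 4 WT and 1 KO cells lay at 5 or 6 UMIs, and 21 and 12 cells lay just outside at 3 or 4. Of 8 further EC markers, Erg had a UMI in the fewest ECs, 47.9% in WT and 53.9% in KO, and the other 7 in 91.0% or more. The median of every other marker sum (blood, muscle, neural, epithelial, mesenchymal) was 0 in ECs of both libraries, yet only 68 WT and 70 KO cells passed no other gate, and doublets were kept. Pdgfrb itself had 27 UMIs in WT ECs and 1 in KO ECs. Outside ECs the KO library still held 1008 Pdgfrb UMIs, 7.34 against 44.2 UMIs per 1000000 UMIs (CPM) in WT, with the highest level of both libraries in smooth muscle, 15.6 against 111 CPM. The paper left out KO cells in which PDGFRβ expression was detected. Such cells were kept here, 1 of them being an EC. Whether the counted end of the transcript lies in the deleted part was not checked here. Xist, transcribed from the inactive X chromosome of females, had 546 CPM in WT ECs against 0.613 CPM in KO ECs, so genotype, sex and library cannot be told apart.

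The 250 bases upstream of the RefSeq start (GRCm38.p6) are shown for the pairs of members whose levels went together most closely over single ECs in WT, as given further on: the connexin genes Gja4 (minus strand, chr4:127314040-127314289) and Gja5 (plus strand, chr3:97032152-97032401), and the venous genes Nr2f2 (minus strand, chr7:70366747-70366996) and Nrp2 (plus strand, chr1:62703067-62703316). All are written along the gene, and capitals mark the letters AGGAAG, a core bound by ETS factors, or their reverse complement.
Gja4: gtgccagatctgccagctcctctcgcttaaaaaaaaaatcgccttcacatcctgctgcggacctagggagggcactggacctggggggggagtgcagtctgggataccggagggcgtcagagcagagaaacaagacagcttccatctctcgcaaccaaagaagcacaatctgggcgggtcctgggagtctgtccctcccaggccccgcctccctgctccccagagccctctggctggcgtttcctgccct
Gja5: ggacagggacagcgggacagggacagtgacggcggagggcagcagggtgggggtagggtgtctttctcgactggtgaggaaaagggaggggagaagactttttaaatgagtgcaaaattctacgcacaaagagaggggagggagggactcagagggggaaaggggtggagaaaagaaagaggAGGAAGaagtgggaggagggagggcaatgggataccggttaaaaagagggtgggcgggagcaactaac
Nr2f2: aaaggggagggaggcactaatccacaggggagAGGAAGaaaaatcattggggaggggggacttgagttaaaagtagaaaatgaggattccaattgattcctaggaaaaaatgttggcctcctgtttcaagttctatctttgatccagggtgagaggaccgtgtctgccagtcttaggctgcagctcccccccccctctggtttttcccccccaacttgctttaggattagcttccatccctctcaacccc
Nrp2: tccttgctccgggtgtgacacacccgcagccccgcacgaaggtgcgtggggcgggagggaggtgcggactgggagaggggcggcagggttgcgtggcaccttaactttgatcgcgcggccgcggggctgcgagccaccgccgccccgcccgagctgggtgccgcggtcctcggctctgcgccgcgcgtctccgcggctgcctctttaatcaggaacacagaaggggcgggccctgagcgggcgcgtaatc

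The letters AGGAAG stood 68 bases before the start of Gja5 and 218 bases before that of Nr2f2, so an arterial and a venous gene shared them. They were found on either strand in 29.5% of 32851 mouse promoters of this length, and in 3 of the 8 members with a promoter entry, Emcn being the other. The same windows were searched on both strands for 4 further motifs. The letters TGGGAA of RBPJ, the DNA-binding partner of Notch, occurred in 21.6% of all promoters and in no member. The letters AGATAA of GATA factors occurred in 9.99% of all promoters and likewise in no member. The letters AACAAT of SOX factors, held by 9.42% of all promoters, and the letters AGGTCA of NR2F receptors, held by 14.02%, were found in Emcn and in no other member. The Gja5 start used by RefSeq lies inside the gene as GENCODE M21 draws it, and other starts were not searched.

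Gja4, Gja5, Aplnr, Emcn and Vwf were far more abundant in ECs than elsewhere, Efnb2, Unc5b, Ephb4 and Nrp2 less so, and Nr2f2 was not. CPM here relates the UMIs of a gene to the UMIs of all genes, both summed over a class. Levels of different genes are not compared, as genes can differ in how well they are captured. Against all other kept cells, 9 members in WT and 8 in KO were past 2-fold higher in ECs, where 10.8% of all genes in WT and 11.5% in KO were. In both libraries at once, 8 members were, against 8.59% of genes.

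Among the arterial genes, Gja4 (Connexin 37, a gap junction protein, chromosome 4, 127311421 to 127314039) had 165 CPM (153 to 178) in WT ECs against 0.479 CPM in other cells, and 132 CPM (122 to 142) against 0.561 CPM in KO. Gja5 (Connexin 40, a further gap junction protein, chromosome 3, 96904693 to 97077416) had 32.9 CPM (27.6 to 39.0) against 0.486 CPM in WT and 23.9 CPM (19.8 to 28.6) against 0.714 CPM in KO. Outside ECs, Gja5 was highest in myogenic cells, where it had 7.45 CPM (WT) and 7.94 CPM (KO). Against all other cells pooled, both connexin genes were thus about 33.5 times as high in ECs, or more, in each library. Against myogenic cells, Gja5 was 4.42 times as high in WT ECs and 3.01 times as high in KO ECs.

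Efnb2 (ephrin-B2, chromosome 8, 8617434 to 8661242) and Unc5b (a netrin receptor, chromosome 10, 60762593 to 60831581) were shared more widely. Efnb2 had 101 CPM (91.7 to 111) in WT ECs and 43.0 CPM in other cells, and 79.0 CPM (71.3 to 87.3) and 34.7 CPM in KO. Its next highest class was epithelium in WT, at 77.4 CPM, and coelomic cells in KO, at 51.1 CPM. Unc5b had 61.9 CPM (54.6 to 70.0) in WT ECs against 15.96 CPM elsewhere, and 54.3 CPM (48.0 to 61.2) against 14.1 CPM in KO.

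On the venous side, Aplnr (the apelin receptor, chromosome 2, 85136225 to 85139923) had the largest ratio of ECs over other cells among the members in both libraries. It had 145 CPM (134 to 157) in WT ECs against 0.253 CPM in other cells, and 192 CPM (180.1 to 205) against 0.182 CPM in KO. Ephb4 (the ephrin-B2 receptor, chromosome 5, 137350109 to 137378669) had 68.3 CPM (60.5 to 76.8) against 28.4 CPM in WT, and 68.2 CPM (61.1 to 75.9) against 25.5 CPM in KO. Its log2 ratio of ECs over other cells was 1.26 in WT and 1.42 in KO.

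Nr2f2 (COUP-TFII, chromosome 7, 70351944 to 70366735) was no higher in ECs than elsewhere. It had 159 CPM (147 to 171) in WT ECs and 210.5 CPM in other cells, a log2 ratio of -0.41, and 167 CPM (156 to 179) and 176 CPM in KO, a log2 ratio of -0.08. ECs ranked 5 of 14 classes in WT and 6 in KO, with the highest values in coelomic cells (393 and 419 CPM) and mesenchyme (328 and 299 CPM). Nrp2 (neuropilin-2, a co-receptor for semaphorins and VEGF-C, chromosome 1, 62703285 to 62818695) ranked 2 in ECs in both libraries, with 162 CPM (150.3 to 175) and 189.7 CPM (178 to 202). Autonomic neurons held more of it, 194 CPM (173 to 217) and 217 CPM (193 to 242), although the intervals overlapped those of ECs in both libraries.

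Emcn (endomucin, an EC surface sialoglycoprotein, chromosome 3, 137341067 to 137432185) had 596 CPM (572 to 620) in WT ECs against 2.80 CPM in other cells, and 626 CPM (604 to 649) against 3.44 CPM in KO. Vwf (von Willebrand factor, a clotting protein that ECs and megakaryocytes store, chromosome 6, 125546774 to 125686679) had 189 CPM (176 to 203) in WT ECs against 0.999 CPM elsewhere, and 111 CPM (102 to 121) against 0.990 CPM in KO. Cells of the megakaryocyte gate held 141 CPM (90 UMIs) and 103 CPM (93 UMIs), so EC levels stood only 1.34 and 1.08 times above them.

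**Figure D1:**
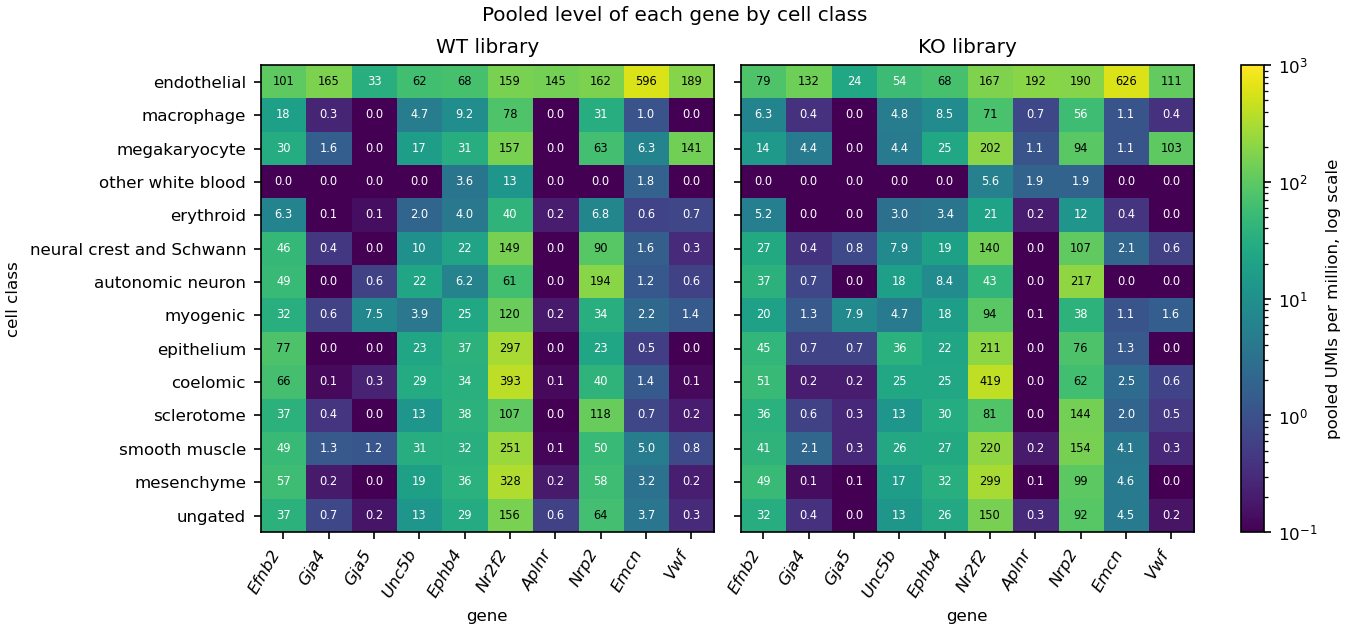
Pooled CPM of the 10 genes (columns) in 14 cell classes (rows) of the WT and KO libraries, with the value printed in each cell and colour on a log scale. Gja4, Aplnr and Emcn stand out in ECs alone, Vwf in ECs and megakaryocytes, and Nr2f2 is highest in coelomic cells (393 and 419 CPM).

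Free RNA bears on the genes that other cells hold. In barcodes with at most 100 UMIs, the level of Nr2f2 was 162 CPM (WT) and 185 CPM (KO), above that of ECs. There, Gja4 and Aplnr had under 6 CPM. In erythroid cells, which lack an endothelial program, Nr2f2 had a UMI in 13.5% of cells in WT and 10.3% in KO and Efnb2 in 5.42% and 3.57%. Gja4 had one in 0.132% of WT cells and in 0 of 224 KO cells, with an exact upper bound of 1.63%. The median depths were 16824 and 19936.5 UMIs in erythroid cells against 40778.5 and 49108 in ECs.

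Within ECs, the members differed in how many cells carried them. Emcn was detected with a UMI in 94.7% (WT) and 92.1% (KO) of ECs, Efnb2 in 78.7% and 76.4%, and Ephb4 in 73.4% and 80.9%. For Gja5, the share was 24.5% (16.2 to 34.4%) in WT and 13.5% (7.17 to 22.4%) in KO, or 23 and 12 cells. Efnb2, Ephb4 and Emcn were thus spread over most ECs while Gja5 lay in few. The 10 ECs with most UMIs of a gene held 32.7% of the Emcn UMIs in WT and 35.7% in KO, but 83.0% and 98.3% of the Gja5 UMIs and 57.9% and 80.3% of the Vwf UMIs. In KO, 1 cell held 38.5% of the Gja5 UMIs, and that cell also passed the erythroid gate. Median single-cell levels were 636 and 563 CPM for Emcn, 109 and 166 CPM for Aplnr and 87.0 and 57.1 CPM for Efnb2.

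The arterial and venous genes were also read together in single ECs. For each cell, the UMIs of Efnb2, Gja4, Gja5 and Unc5b were set against those of Ephb4, Nr2f2, Aplnr and Nrp2, and the arterial share was read in the 90 WT and 87 KO cells that held 5 or more of these UMIs. In WT, 42 cells had a share of at most 0.2, 16 lay between 0.2 and 0.5, 13 between 0.5 and 0.8, and 19 at 0.8 or above. In KO, the same bins held 58, 11, 4 and 14 cells. Few cells lay near the middle, 6 in WT and 3 in KO being within 0.05 of a share of 0.5. The median share was 0.229 in WT and 0.143 in KO. A share of 0.5 is no midpoint of identity, since it depends on how well each of the 8 genes was captured and on free RNA, which held much Nr2f2, so the bins order the cells and do not count arterial and venous ECs.

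**Figure D2:**
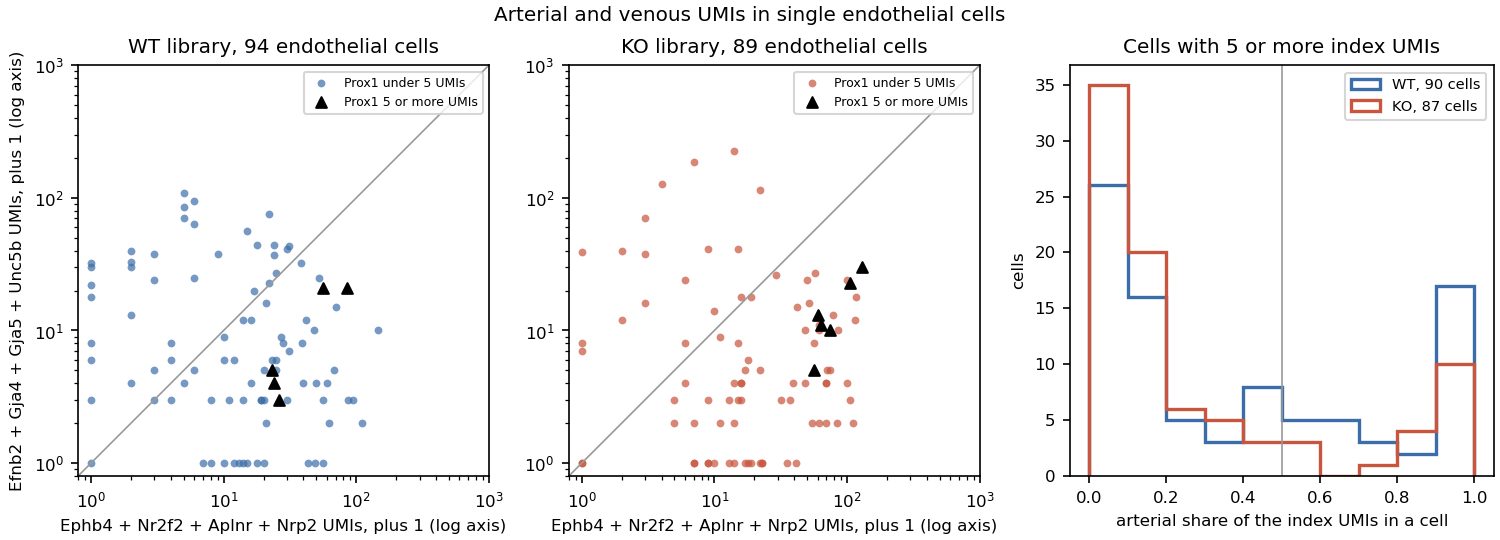
Left and middle, summed arterial UMIs (y) against summed venous UMIs (x) plus 1 in each EC of the WT (94 cells) and KO (89 cells) library on log axes, triangles being cells with 5 or more Prox1 UMIs and the line marking equal counts. Right, the number of cells by arterial share for the 90 WT and 87 KO cells with 5 or more of these UMIs, which pile up at both ends, with 32 WT and 18 KO cells at 0.5 or above.

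To ask whether each member follows the others, ECs were ranked by arterial share with that member left out, and the 27 to 30 cells ranked highest were set against as many ranked lowest. Of the 10 members, 9 differed past 1.5-fold in the same direction in both libraries. Of 8372 genes, 10.7% did so on the full ranking, 7.12% being higher on the arterial side and 3.61% lower. The median log2 ratio over all genes was 0.09 in WT and -0.04 in KO.

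Gja4 had 435 CPM in arterial-leaning and 5.08 CPM in venous-leaning cells in WT, and 453 against 6.04 CPM in KO, log2 ratios of 6.42 (5.29 to 7.87) and 6.23 (5.30 to 7.37). In KO, the 10 ECs richest in Gja4 held 82.3% of its UMIs, a spread over cells that the interval does not cover. Gja5 had 122 UMIs on the arterial side and 0 on the venous side in WT, and 116 and 0 in KO. Against a floor of 3 counts, Gja5 was at least 43.2-fold higher in WT and at least 43.9-fold higher in KO. The connexin genes were therefore nearly absent from venous-leaning cells. Efnb2 was graded, with 196 against 58.9 CPM in WT, log2 1.74 (1.34 to 2.15), and 162 against 37.5 CPM in KO, log2 2.11 (1.68 to 2.55). Unc5b was graded likewise, at log2 1.72 (1.27 to 2.201) in WT and 2.76 (2.24 to 3.31) in KO.

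Nr2f2 had 55.2 CPM in arterial-leaning and 283 CPM in venous-leaning WT cells, log2 -2.36 (-2.77 to -1.97), and 70.9 against 224 CPM in KO, log2 -1.66 (-2.02 to -1.31). Within ECs it thus followed the venous side, although ECs were not its highest class. Nrp2 stood at log2 -2.004 (-2.39 to -1.63) in WT and -0.90 (-1.18 to -0.63) in KO, and Aplnr at -1.53 (-1.92 to -1.16) and -1.09 (-1.38 to -0.80). Ephb4 differed least of the venous genes, with 61.1 against 93.8 CPM in WT, log2 -0.62 (-1.06 to -0.19), and 56.7 against 93.0 CPM in KO, log2 -0.71 (-1.15 to -0.29). Its intervals reached inside 1.5-fold in both libraries.

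Of the genes placed on neither side, Vwf was higher in arterial-leaning cells, 368 against 154 CPM in WT, log2 1.25 (1.01 to 1.503), and 235 against 73.9 CPM in KO, log2 1.67 (1.35 to 1.99). Emcn was close to even, 588 against 698 CPM in WT, log2 -0.25, and 618 against 814 CPM in KO, log2 -0.40, and was the member not past the fold. The KO arterial-leaning cells were less purely arterial, as they began at a share of 0.227, where those of WT began at 0.543. The gate genes themselves were past 1.5-fold higher in arterial-leaning cells in both libraries. Cdh5 was higher by log2 0.64 in WT and 0.82 in KO, and Pecam1 by 0.96 and 0.84. Median depths were 26169 UMIs on the arterial and 40830.5 on the venous side in WT, and 44132 and 50812 in KO.

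A list of 15 arterial genes, 7 of them Notch receptors, ligands or targets, was read on the full ranking. All 15 passed the filter of 20 UMIs and all were past 1.5-fold higher in arterial-leaning cells in both libraries, where 7.12% of all genes were. This list, like the venous one below, was chosen with earlier results of these data known, so the count is no independent support for the ranking. The median log2 ratio of the 15 genes was 2.38 in WT and 2.41 in KO. Bmx (a tyrosine kinase of arterial endothelium) had 58 UMIs against 2 in WT and 26 against 1 in KO, log2 4.97 and 4.88. Cxcr4 (the CXCL12 receptor) had 54 against 1 in WT, log2 5.87, and 42 against 0 in KO, at least 3.99 on the log2 scale. The Notch targets Hey1 and Hey2 stood at log2 5.08 and 4.92 in WT and 3.65 and 3.43 in KO. Their few UMIs on the venous side, 5 and 2 in WT and 15 and 2 in KO, leave wide intervals, 3.83 to 6.73 for Hey1 in WT and 1.38 to 6.58 for Hey2 in KO.

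The list of 12 venous and lymphatic genes was less uniform. Of 7 that passed the filter in both libraries, 3 were past 1.5-fold lower in arterial-leaning cells in both, where 3.61% of all genes were. The median log2 ratios of the 7 were -0.80 in WT and -0.38 in KO. Lyve1 (a hyaluronan receptor of lymphatic and some venous endothelium) had 1 UMI against 48 in WT, log2 -5.47, and 0 against 65 in KO, at most -4.25. Nr2f1 (COUP-TFI) stood at -1.39 and -1.74, and Dab2, an endocytic adaptor, at -1.54 and -1.19. Flt4, Stab1, Tek and Plvap were the 4 not past the fold in both, and Flt4 was higher on the arterial side in KO, at log2 1.04, against -0.03 in WT. Plvap (a protein of endothelial fenestrae) was slightly higher on the arterial side, 667 against 557 CPM in WT and 634 against 540.4 CPM in KO. Stab2 (a scavenger receptor) and Prox1, the master regulator of lymphatic identity, passed the filter in WT only, with 2 UMIs against 27 and 1 against 30. Prox1 had 3 against 14 in KO. All WT ECs held 133 Prox1 UMIs and all KO ECs 148, most of them in cells on neither side, so these counts do not place Prox1.

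**Figure D3:**
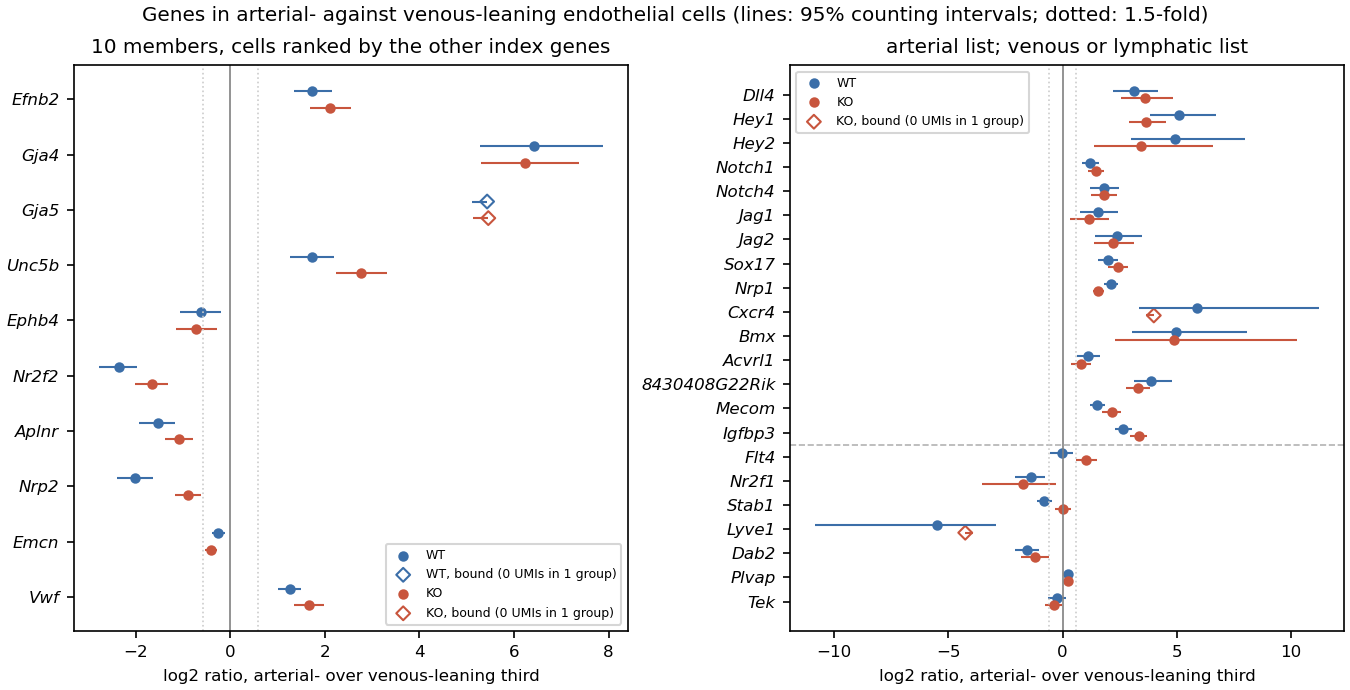
Log2 ratio of arterial- over venous-leaning ECs in WT (blue) and KO (red) with 95% counting intervals, for the 10 members on the left, each ranked without itself, and for the listed genes on the right, arterial ones above the dashed line. Diamonds are bounds where 1 side held 0 UMIs; Gja4 lies above 6 in both libraries and Emcn near 0.

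Pairs of members were compared over single ECs by Pearson's r of depth-scaled log2 UMIs, given as a description, as cells of 1 library share depth and library. All 6 arterial pairs were positive in both libraries, from 0.449 to 0.790 in WT and 0.559 to 0.813 in KO, and so were all 6 venous pairs, from 0.0472 to 0.686 and 0.313 to 0.688. The signs of pairs of other genes were not counted for comparison. Gja4 and Gja5 went together at 0.790 in WT and 0.813 in KO, and Nr2f2 and Nrp2 at 0.686 and 0.688. Of 16 arterial-venous pairs, 12 were negative in both, and the other 4 all held Ephb4, which was near 0 with every arterial gene in KO. In WT, Ephb4 was weakly positive with both groups, from 0.037 to 0.192 with arterial and 0.047 to 0.141 with venous genes. In KO, it went with the venous genes, at 0.313 to 0.404. Vwf went with Gja5 at 0.641 in WT and 0.727 in KO. Emcn went with Aplnr at 0.475 and 0.540.

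Among 5163 genes with 100 or more EC UMIs in each library, those most like the summed arterial genes were Sat1 (r of 0.785 in WT and 0.736 in KO), Efna1 (0.728 and 0.746), Serpinf1 (0.711 and 0.740), Ltbp4 (0.759 and 0.692) and H19 (0.689 and 0.733). Efna1 encodes ephrin-A1, a ligand of EphA receptors. Those most like the summed venous genes were Gnas (0.642 and 0.599), Flrt2 (0.659 and 0.545), Elk3 (0.603 and 0.528), Tead2 (0.505 and 0.484) and Cnrip1 (0.484 and 0.519).

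A small group of ECs had high Nrp2 and little Aplnr. The 5 WT and 6 KO cells with 5 or more UMIs of Prox1, a group chosen after the values were seen, had 524 CPM (443 to 617) and 607 CPM (534 to 687) of Nrp2, log2 ratios of 1.95 and 2.01 over the other ECs. Flt4, the VEGF-C receptor, was also higher in them, by log2 1.51 and 1.34. Lyve1 was not higher in these cells. It had 3 UMIs in WT, all in 1 cell, log2 -0.31 (-2.63 to 1.32), and 0 in KO, at most -1.24. Aplnr had 4 UMIs in them in WT and 20 in KO, log2 -3.43 and -2.09, and 19 of the 20 KO UMIs lay in 1 cell. Unc5b, counted here as arterial, was higher in them in both libraries, 147 CPM (106 to 199.8) and 126 CPM (93.9 to 165), log2 1.40 in each. Vwf had 0 UMIs in WT and 2 in KO, and Gja5 had 0 in both. Nr2f2 had 147 CPM in these cells in WT and 423 CPM in KO, so it was not above the other ECs in WT. All 11 cells lay below an arterial share of 0.5. Nrp2 is itself counted on the venous side of that share, so the low share partly restates the high Nrp2. It is therefore no separate sign of venous identity. The share without Nrp2 was not compared for these cells. In WT, 1 of the 5 cells held 18 of the 41 Unc5b UMIs and 63 of the 146 Nrp2 UMIs, and also passed the mesenchyme gate. Another held 17 of the Unc5b UMIs and 41 of the Nrp2 UMIs.

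Kit, which marks the blood cell clusters of the aortic wall, had a UMI in 54 WT and 52 KO ECs, of which 17 and 25 held only 1. Its level was 42.4 CPM in WT ECs and 27.6 CPM in KO ECs against 14.5 and 13.1 CPM in free RNA, and 2.25% and 3.57% of erythroid cells held a Kit UMI. The KO cells with most Kit UMIs, 13 and 10, also passed the myogenic and the epithelium gate and held 0 Emcn UMIs. The WT cell with most, 12, passed no other gate and likewise held 0. The cells with a Kit UMI were deeper than those without, at medians of 49689 against 18976.5 UMIs in WT and 56050 against 21138 in KO, so the split follows depth as well as Kit. The part of depth and of free RNA in the result was not tested. After thinning to 2000 UMIs no member was past the fold in both libraries, but only 5 WT and 4 KO cells kept a Kit UMI. With so few UMIs, and a count of 0 set to 3 counts, scarce genes could hardly be called lower, so thinning does not bear on depth here. The connexins and Vwf were lower in the cells with a Kit UMI in both libraries, and these 3 members were past 1.5-fold lower in both, where 1.78% of genes were. Gja5 had 13.1 against 84.9 CPM in WT, log2 -2.69 (-3.27 to -2.14), and 7.95 against 59.985 CPM in KO, log2 -2.92 (-3.59 to -2.28). Gja4 stood at -1.47 (-1.69 to -1.25) and -1.75 (-1.99 to -1.52), and Vwf at -0.74 (-0.95 to -0.53) and -1.74 (-1.99 to -1.49).

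With Efnb2 and Unc5b, 5 members were past the fold in KO, where 10.1% of genes were lower, against 3 in WT, where 7.32% were. These 2 genes stood at -0.75 (-1.05 to -0.45) and -1.05 (-1.41 to -0.69), against -0.15 (-0.45 to 0.17) and -0.25 (-0.64 to 0.16) in WT. Whether the libraries differ in this was not tested. Ephb4, Nr2f2 and Nrp2 differed by at most 0.24 between cells with and without a Kit UMI in either library. Aplnr had 141 against 157 CPM in WT and 213 against 146 CPM in KO. The arterial over venous UMI ratio was 0.525 in cells with a Kit UMI and 1.07 in those without in WT, and 0.298 and 0.899 in KO.

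Between the libraries, Vwf was the only member past 1.5-fold in ECs. Of 11237 genes, 14.7% were, 5.14% higher in KO and 9.51% lower. Vwf had 777 UMIs in WT and 544 in KO, log2 of KO over WT -0.77 (-0.93 to -0.61), and a UMI in 54.3% (43.7 to 64.6%) of WT and 43.8% (33.3 to 54.7%) of KO ECs. The 6 WT and 2 KO ECs that also passed the megakaryocyte gate held 181 and 108 of these UMIs. Without them, 167 CPM of Vwf were left in WT against 95.4 CPM in KO, log2 -0.81 (-0.99 to -0.63), where 14.1% of genes were past the fold. The part of megakaryocyte RNA in the Vwf difference was not tested. The mean of single-cell CPM gave -0.50, which is not past the fold.

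The 4 arterial genes were all lower in KO and none reached the fold. Efnb2 stood at log2 -0.36 (-0.56 to -0.15), Gja4 at -0.32 (-0.48 to -0.17), Gja5 at -0.46 (-0.83 to -0.09) and Unc5b at -0.19 (-0.44 to 0.06). Without the ECs that also passed a blood gate, which removed the KO cell richest in Gja5, Gja5 stood at -1.21 (-1.67 to -0.77), past the fold. Of the venous genes, Aplnr stood at 0.41 (0.26 to 0.56) and Nrp2 at 0.22 (0.08 to 0.37), while Nr2f2 at 0.07 (-0.08 to 0.22) and Ephb4 at -0.00 (-0.24 to 0.23) had intervals that held 0. Over the processing alternatives, Aplnr ran from 0.01 by the mean of single-cell CPM to 0.79 with at most 5% mitochondrial UMIs. Emcn stood at 0.07 (-0.01 to 0.15). Summed, the arterial genes had 1480 UMIs in WT and 1415 in KO and the venous genes 2192 and 3022. The arterial over venous ratios were 0.675 and 0.468, a log2 of KO over WT of -0.53 (-0.66 to -0.39). This interval does not cover the spread over cells. The 10 ECs richest in Gja4 held 55.2% of its UMIs in WT and 82.3% in KO, and 1 KO cell held 20.2%.

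By cells, 32 of 90 WT ECs (35.6%, 25.7 to 46.3%) and 18 of 87 KO ECs (20.7%, 12.7 to 30.7%) had an arterial share of 0.5 or more, a log2 odds ratio of -1.07 (-2.15 to -0.04). The intervals of these shares overlapped. All these intervals treat the cells of 1 library as independent and are no test of genotype.

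**Figure D4:**
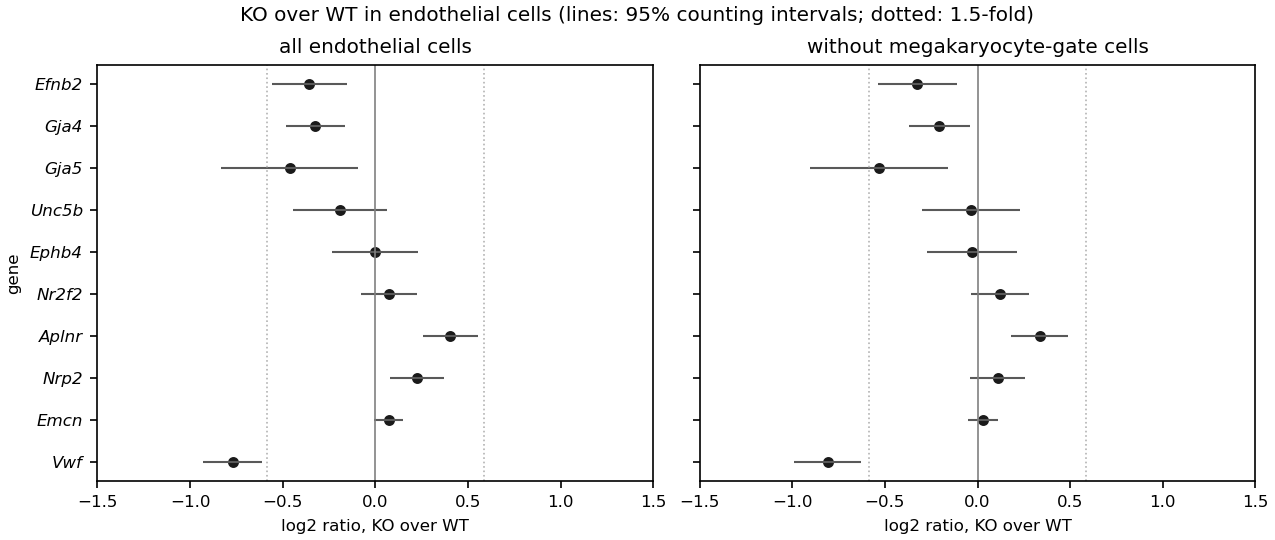
Log2 ratio of KO over WT with 95% counting intervals for the 10 genes in all ECs (left) and without the ECs that also passed the megakaryocyte gate (right), the dotted lines marking 1.5-fold. Vwf lies past the line in both (-0.77 and -0.81), and the other 9 genes lie inside it in both.

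Of the listed genes, none was past 1.5-fold higher in KO ECs. Past the fold lower, as 9.51% of all genes were, stood 3 of 15 in the arterial list, with a median log2 of -0.22 against 0.01 over all genes: Hey2 at -1.75 (-2.52 to -1.03), Bmx at -1.33 (-2.005 to -0.68) and Cxcr4 at -0.91 (-1.48 to -0.34). In the venous and lymphatic list, 3 of the 10 that passed the filter were, with a median of -0.21: Nr2f1 at -1.05 (-1.39 to -0.71), Dab2 at -0.72 (-0.99 to -0.46) and Vcam1 at -0.95 (-2.07 to 0.12), the last from 21 and 13 UMIs.

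Outside ECs, Nrp2 was past 1.5-fold higher in KO in 6 of 12 classes and Efnb2 past 1.5-fold lower in 5 of 12. Nrp2 was higher in KO in all 12 other classes with 20 or more UMIs, ungated cells included. It was past the fold in smooth muscle, mesenchyme, epithelium, macrophages, erythroid and coelomic cells. Of all genes, 7.02%, 6.09%, 7.86%, 6.14%, 6.37% and 6.17% were past 1.5-fold higher in these classes. In smooth muscle it had 49.95 CPM (46.6 to 53.4) in WT, and in KO 154 CPM (146 to 162), log2 1.62 (1.503 to 1.75). In mesenchyme it had 58.0 and 98.7 CPM, log2 0.77 (0.69 to 0.85). In epithelium, with 34 cells in each library, it had 22.5 and 75.7 CPM. Smooth muscle cells numbered 610 in WT and 348 in KO. The EC ratio of 0.22 was at the low end of these 12, which ran from 0.16 in autonomic neurons to 1.75 in epithelium, and Nrp2 in free RNA was 67.6 CPM in WT and 68.7 CPM in KO.

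Efnb2 was lower in KO in all 12 other classes, from log2 -0.02 in sclerotome to -1.51 in macrophages, although the interval held 0 in 4 classes. It was past the fold in macrophages, megakaryocytes, epithelium, neural crest and myogenic cells. Of all genes, 9.17%, 10.8%, 14.2%, 7.64% and 6.42% were lower past the fold in these classes. The macrophage value rests on 68 UMIs in WT and 17 in KO. That of megakaryocytes rests on 19 and 13, and its interval held 0 (-2.20 to 0.04). In the other 3 of these classes, Efnb2 had 68 or more UMIs in each library. In mesenchyme it had 57.4 CPM (2370 UMIs) in WT, and in KO 49.2 CPM (1429 UMIs), log2 -0.22 (-0.32 to -0.13). Its EC ratio of -0.36 was thus close to the median of the other classes, -0.38. Ephb4 was negative in 11 of 12 and Nr2f2 in 10 of 12, with medians of -0.24 and -0.16 and 1 class past the fold in each, epithelium for Ephb4 and erythroid cells, where 17.7% of genes were lower, for Nr2f2. Gja4, Gja5, Aplnr and Vwf reached 20 UMIs in at most 2 other classes.

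**Figure D5:**
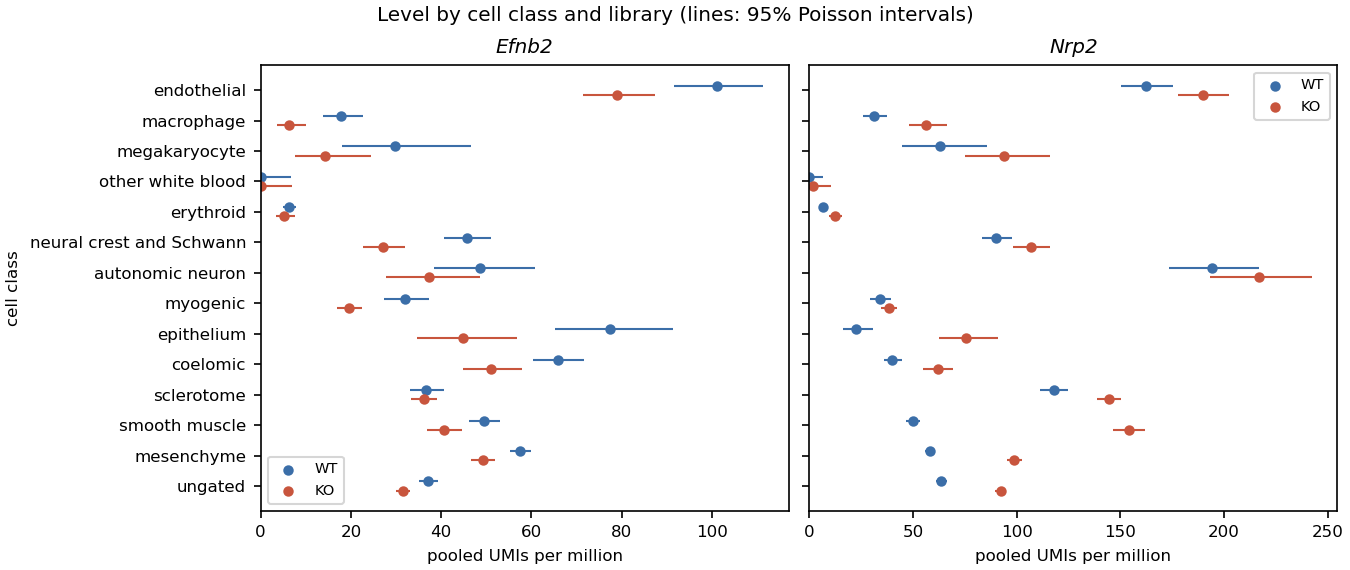
Pooled CPM of Efnb2 and Nrp2 in 14 cell classes of the WT (blue) and KO (red) library with 95% Poisson intervals. Efnb2 lies lower in KO in most classes, from 101 to 79.0 CPM in ECs, and Nrp2 lies higher, most widely in smooth muscle, from 49.95 to 154 CPM.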

How the data were processed

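The authors aligned the reads to GRCm38 with Cell Ranger 3.1.0 and deposited raw UMI counts for each barcode, with no normalization. Barcodes with 2000 or more UMIs and under 10% mitochondrial UMIs were kept, and ECs and 12 other classes were gated on summed UMIs of markers, ECs first. No doublet caller was run. UMIs were summed over cells and given as CPM with exact Poisson intervals, shares with exact binomial (Clopper-Pearson) intervals, and log2 ratios with exact conditional intervals, all at 95% and for counting error only. A count of 0 was set to 3 counts in a ratio, and such a bound was called only in its own direction. Genes needed 20 UMIs in a comparison. The members, lists and folds were chosen with earlier results of these data known. Named genes are the members, gate and check genes, up to 4 per list and direction by the smaller ratio of the libraries, and the 5 most correlated genes per side. Erg, Flt4, Dab2 and Vcam1, and Stab1 and Tek, were named after their values were seen. Depp1 is listed as 8430408G22Rik. Positions are from GENCODE M21 and promoters from RefSeq, where 8 of the 10 members matched. Calculations used Python 3.11.15, numpy 2.4.6, scipy 1.17.1, pandas 2.3.3 and matplotlib 3.10.9, and were tested on simulated data.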

Additional observations from a re-analysis of the deposited data

Results flagged for a closer look

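Emcn differed in direction between the libraries when ECs with a Kit UMI were set against those without. It stood at a log2 ratio of -0.38 in WT and 0.27 in KO, neither past 1.5-fold. The difference was not tested.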

How the results depend on the processing

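No paired analysis was possible because each genotype has 1 library, and no library could be left out. Vwf alone was past 1.5-fold between the libraries as reported. This count was 2 without cells of other gates (Gja5 and Vwf), 2 by the mean of single-cell CPM (Gja4 and Gja5, without Vwf), 2 after thinning to 2000 UMIs (Vwf, and Unc5b at 0.76, higher in KO), and 5 with at most 5% mitochondrial UMIs (Gja5, Nr2f2, Aplnr, Vwf, and Unc5b at -0.82, lower in KO), which left 28 WT and 22 KO ECs. It was also 2 (Gja5 and Vwf) without cells of blood gates, an alternative chosen after seeing the data. The arterial to venous ratio of KO over WT moved from log2 -0.53 to -0.91 with at most 5% mitochondrial UMIs. The 9 members past the fold between arterial- and venous-leaning cells became 5 when all ranked cells were divided at the middle (Efnb2, Gja4, Gja5, Unc5b and Vwf). None of the 4 venous genes was among these 5. With Nr2f2 left out of the index, the 9 became 7. The 3 members lower in Kit-positive cells became 0 after thinning, which left 5 WT and 4 KO Kit-positive cells, too few to call scarce genes lower. In the Kit comparison of KO, Unc5b reversed to 0.0036 without cells of other gates, and after thinning Efnb2 reversed to 2.71 and Unc5b to 1.602. The cause of these moves was not tested. Of all genes, 14.7% were past the fold between libraries, against 22.1% with at most 5% mitochondrial UMIs, 25.2% after thinning and 6.69% among genes with 100 or more UMIs. Of 859 further values, 588 stayed near the reported value and 268 did not. The other 3, the ones just given, were past the fold as reported and changed sign. Near meant inside the counting interval of the reported value for single genes, and within 1.5-fold for the share of all genes past the fold. Values that were not past the fold as reported changed sign in 48 more cases, 31 of them in the Kit comparison. Between libraries there were 9 such cases, over Unc5b (to between 0.20 and 0.76), Emcn (-0.02 and -0.14) and Ephb4 (at most 0.11). The comparisons by arterial share were not run after thinning or at 5% mitochondrial UMIs, where too few cells were left. Nrp2 joined the 8 members past 2-fold higher in ECs of both libraries under several alternatives, where this count ran from 7 to 9. Counting depth limits Gja5 most, with 135 and 117 UMIs.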
